A study of Mus musculus with 6 samples.

Results

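The 10 genes described here are core genes of Notch signalling. They comprise the receptors Notch1, Notch2 and Notch3, the ligands Jag1, Jag2 and Dll1, the DNA-binding factor Rbpj, and the target genes Hes1, Hey1 and Nrarp. They were listed by name, and each was read from the brightest of its single-symbol probe sets, judged by the mean of the 6 arrays, out of 19937 named genes measured. A single gene of the list, Rbpj, had another such probe set. In cells given PTC-209, 3 of the 10 genes rose (Jag1, Dll1 and Rbpj), 4 fell (Hes1, Nrarp, Jag2 and Notch1) and 3 did not pass the test (Notch2, Notch3 and Hey1). Over all named genes 12.9% rose and 13.7% fell, together 26.6%. The median log2 difference was 0.046 for the 10 genes and 0.026 for all named genes, and the median absolute difference was 0.53 and 0.17. Because the 10 genes were chosen with earlier results of these data known, these counts and medians are a description and not a test.

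Notch receptors sit in the plasma membrane and are switched on by ligands of the Jagged and Delta-like families on a neighbouring cell. Ligand binding exposes the receptor to cleavage by ADAM proteases and then by gamma-secretase, which frees the intracellular domain to enter the nucleus. There it joins RBPJ and Mastermind-like coactivators at target genes such as Hes1, Hey1 and Nrarp, while without it RBPJ binds corepressors. In the lung epithelium Notch activity favours secretory over ciliated cells, and HES1 restrains the neuroendocrine fate.

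All arrays came from A316, described in the labels as a primary adenocarcinoma line of the mouse with the gene of C/EBP alpha knocked out, so controls and treated cells share this loss and the results concern 1 line. The DMSO group holds 3 arrays of cells given 0.5% DMSO, and the PTC-209 group holds 3 arrays of cells given PTC-209, which the labels call a Bmi inhibition, in 0.5% DMSO. The series title places the study in pulmonary adenocarcinomas with low levels of the same factor. The labels state no dose, exposure time or origin of the knockout. Nothing says that replicates were separate cultures, so a p-value speaks to the spread of these 6 samples alone, and that spread may be technical.

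Values are the authors' log2 expression values, given per array or as mean ± SD (n = 3). A gene rose or fell when its p-value from limma's moderated test, with Benjamini-Hochberg adjustment across the 28192 probe sets tested, was under 0.05. The median brightness of these probe sets, 4.33, marks where levels become dim, and a gene with a group mean under it is given by its levels and its adjusted p, without a fold change or interval. Its log2 difference, which near the background can understate a change, enters only the counts, the medians, the plots (as open symbols) and the alternative settings. Probe sets differ in how strongly they respond to the same amount of RNA, so levels are compared between arrays and not between genes. In bulk RNA, fewer cells expressing a gene and less RNA per cell cannot be told apart.

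Promoter sequence is shown for the gene with the greatest rise among the 10 (Jag1), for the nuclear factor itself (Rbpj) and for a target gene that fell (Nrarp). RefSeq (GRCm38.p6) gave a promoter window for 8 of the 10 genes, with 10 windows in all. Hes1 and Hey1 had no window and were not searched. Each sequence below is the 250 bases before the annotated start, written 5′ to 3′ on the strand of the gene. Capitals mark 3 short motifs, searched on both strands, which overlapped nowhere in these windows. They are the RBPJ core TGGGAA, the N-box CACNAG bound by HES proteins, and the E-box CACGTG bound by HEY and BHLHE40 type proteins.
Jag1, chr2:137116521-137116770, minus strand: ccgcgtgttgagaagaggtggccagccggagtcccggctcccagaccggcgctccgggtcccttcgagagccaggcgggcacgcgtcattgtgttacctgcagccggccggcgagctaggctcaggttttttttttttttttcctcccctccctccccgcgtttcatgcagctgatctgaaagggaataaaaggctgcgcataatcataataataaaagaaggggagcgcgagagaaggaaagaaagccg
Rbpj, chr5:53590096-53590345, plus strand: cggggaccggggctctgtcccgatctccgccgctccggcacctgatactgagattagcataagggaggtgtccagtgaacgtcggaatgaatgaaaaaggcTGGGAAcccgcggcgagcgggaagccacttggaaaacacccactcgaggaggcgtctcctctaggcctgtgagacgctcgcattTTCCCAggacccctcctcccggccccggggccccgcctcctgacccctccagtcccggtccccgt
Nrarp, chr2:25180508-25180757, plus strand: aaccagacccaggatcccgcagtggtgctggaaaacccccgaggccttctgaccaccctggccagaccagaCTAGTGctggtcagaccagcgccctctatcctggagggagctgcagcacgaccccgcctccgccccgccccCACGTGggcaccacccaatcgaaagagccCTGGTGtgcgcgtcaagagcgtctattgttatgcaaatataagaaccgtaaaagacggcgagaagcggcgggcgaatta

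The Jag1 window held none of the 3 motifs. In the Rbpj window the RBPJ core stood at positions -149 to -144 and -65 to -60, counted back from the start. A second annotated start of Rbpj, 140 bases downstream, repeats the latter. None of the other 7 genes with a window had that core, and 21.6% of all 32851 windows of this length have it. Nrarp was the only target gene among those searched. The Nrarp window held an N-box at -179 to -174 and at -79 to -74 and an E-box at -108 to -103, against 36.7% and 6.02% of all windows with at least 1. An N-box also stood in the windows of Notch1, Notch2 and Notch3. The G and C content of the 10 windows lay between 56.0% and 87.2%, above the median of 52.4% over all windows. A match of letters is a description and not a binding site.

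Among the ligands, Jag1 and Dll1 rose and Jag2 fell. Jag1, Jagged 1, read 5.72, 5.57 and 5.88 on the DMSO arrays and 7.09, 6.87 and 6.66 on the PTC-209 arrays. Every treated array lay above every control array, with 0.78 between the nearest of them. The level was 2.22-fold higher (95% confidence interval 1.81 to 2.73; log2 difference 1.15, SE 0.13; limma adjusted p = 0.000172). A difference this high or higher was seen in 1.45% of named genes.

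Dll1, Delta-like 1, a ligand best known from segmentation and neural progenitors, read 4.15, 4.05 and 3.98 in DMSO and 4.79, 4.79 and 4.50 with PTC-209. The control arrays lay under the median brightness of 4.33 and the treated arrays above it. Mean levels were a dim 4.06 ± 0.08 and 4.69 ± 0.17 (limma adjusted p = 0.0024), and the groups did not overlap.

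Jag2, Jagged 2, moved the other way. Its values were 5.13, 4.94 and 4.54 in DMSO and 4.31, 4.41 and 4.08 with PTC-209. The highest treated array lay 0.13 under the lowest control array, and control replicate 3 stood low in its group. The means were 4.87 ± 0.30 and 4.27 ± 0.17, the latter dim (limma adjusted p = 0.0191). The call ended when DMSO replicate 1 was left out (adjusted p = 0.0573), likewise DMSO replicate 2 (0.0625) and PTC-209 replicate 3 (0.0747), with the 6568 probe sets presumed to be controls kept in the fit (0.0516) and with a minimum fold change of 1.2 (0.177); over all alternatives it lay between 0.00404 and 0.177.

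**Figure D1:**
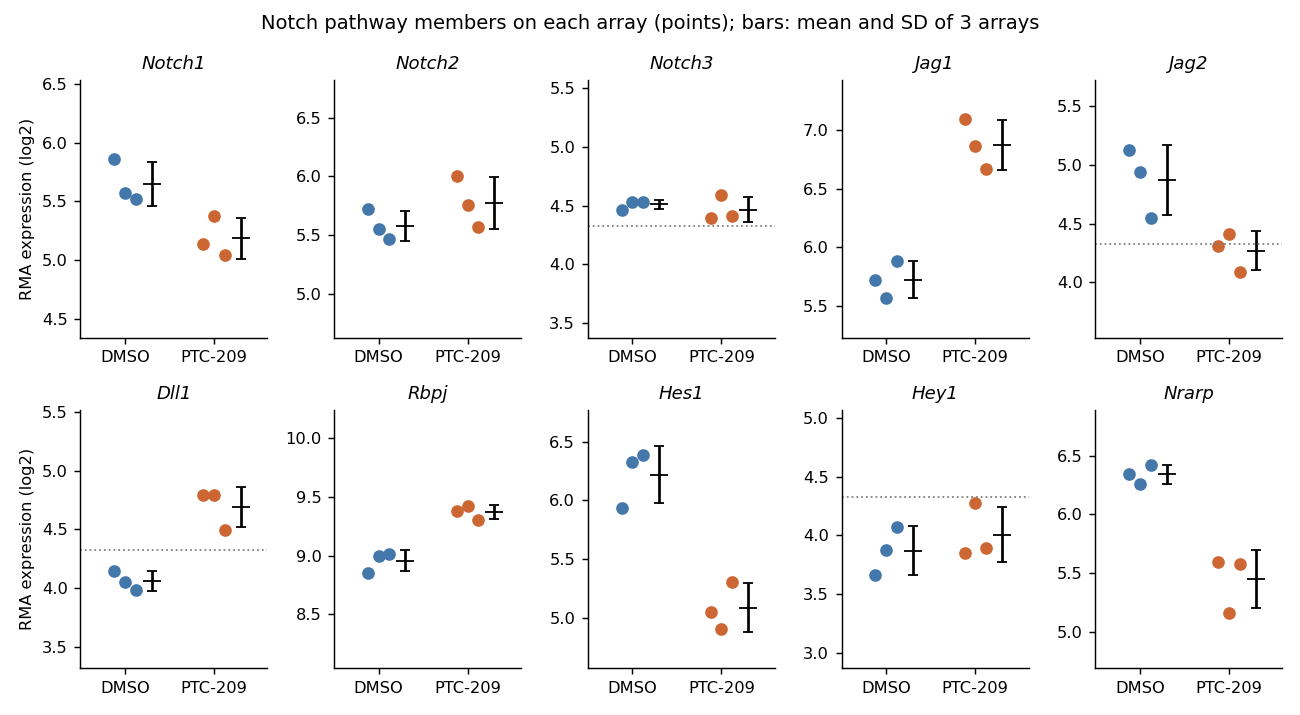
Log2 expression of the 10 genes on each of the 6 arrays (points; blue DMSO, orange PTC-209), with the mean and SD of the 3 arrays of a group beside them. Every panel spans 2.2 log2 units, and the dotted line is the median brightness of 4.33. Jag1, Dll1 and Rbpj lie higher and Hes1, Nrarp, Jag2 and Notch1 lower with PTC-209 without overlap, while the groups overlap for Notch2, Notch3 and Hey1.

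Of the 3 receptors, Notch1 fell, and Notch2 and Notch3 did not pass. Notch1, the receptor most widely studied in epithelia and T cells, read 5.86, 5.57 and 5.52 in DMSO and 5.14, 5.38 and 5.04 with PTC-209. The groups were 0.14 apart at their nearest arrays, and DMSO replicate 1 was the highest array. Notch1 was 1.38-fold lower with PTC-209, between 1.13- and 1.69-fold by its 95% interval (log2 difference -0.46, SE 0.13; limma adjusted p = 0.0273). The call ended on leaving out DMSO replicate 1 (limma adjusted p of 0.0734), PTC-209 replicate 1 (0.0819) or PTC-209 replicate 3 (0.0997), and also on keeping the presumed control probe sets (0.0606) and on requiring a fold change above 1.2 (0.401). Over all alternatives the adjusted p lay between 0.0139 and 0.401.

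Notch2, which is broadly expressed in epithelia, read 5.72, 5.55 and 5.46 in DMSO and 6.001, 5.75 and 5.57 with PTC-209. The groups overlapped, since the lowest treated array lay under the highest control array. The log2 difference of 0.20 did not pass (limma adjusted p = 0.35), and its 95% confidence interval ran from -0.09 to 0.49, that is from 0.937 to 1.40 of the control level. Notch3, a receptor of vascular smooth muscle and some carcinomas, read 4.47, 4.54 and 4.53 in DMSO and 4.40, 4.59 and 4.41 with PTC-209. These values lay close above the median brightness and overlapped. The log2 difference was -0.04 (95% confidence interval -0.26 to 0.17, or 0.834 to 1.13 of the control level; limma adjusted p = 0.819). Whether Notch1 differed more than Notch2 or Notch3 was not tested.

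Rbpj, the factor through which the cleaved receptor reaches DNA, rose. It read 8.86, 9.00 and 9.02 in DMSO and 9.38, 9.42 and 9.31 with PTC-209. The spread within each group was narrow and the nearest arrays were 0.29 apart. The level was 1.33-fold higher (95% confidence interval 1.15 to 1.54; log2 difference 0.41, SE 0.09; limma adjusted p = 0.0104). The other probe set of Rbpj, which the annotation ties to a different transcript record, was dim in both groups, at 2.43 ± 0.11 and 2.99 ± 0.36 (limma adjusted p = 0.038). Tested against a minimum fold change of 1.2, the brighter probe set did not pass (adjusted p = 0.385; 0.00174 to 0.385 over all alternatives).

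Of the 3 target genes, Hes1 and Nrarp fell and Hey1 did not pass. Hes1, a basic helix-loop-helix repressor, read 5.94, 6.33 and 6.39 in DMSO and 5.05, 4.90 and 5.31 with PTC-209. All treated arrays lay below all controls, with 0.63 between the nearest. Hes1 was 2.19-fold lower with PTC-209, between 1.74- and 2.76-fold by its 95% interval (log2 difference -1.13, SE 0.15; limma adjusted p = 0.000392). The share of named genes with a difference this low or lower was 3.47%.

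Nrarp, an ankyrin repeat protein that is induced by Notch and limits it, read 6.35, 6.26 and 6.42 in DMSO and 5.60, 5.16 and 5.58 with PTC-209. The controls agreed within 0.08 (SD) and the treated arrays spread more widely, by 0.25, with replicate 2 the lowest. Nrarp was 1.86-fold lower with PTC-209, between 1.52- and 2.28-fold by its 95% interval (log2 difference -0.90, SE 0.13; limma adjusted p = 0.000765), and the nearest arrays were 0.66 apart.

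Hey1, a repressor related to Hes1, was dim on all 6 arrays, at 3.66, 3.87 and 4.07 in DMSO and 3.85, 4.28 and 3.89 with PTC-209. The groups overlapped (limma adjusted p = 0.603). That Hes1 and Hey1 differ in response was not tested.

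**Figure D2:**
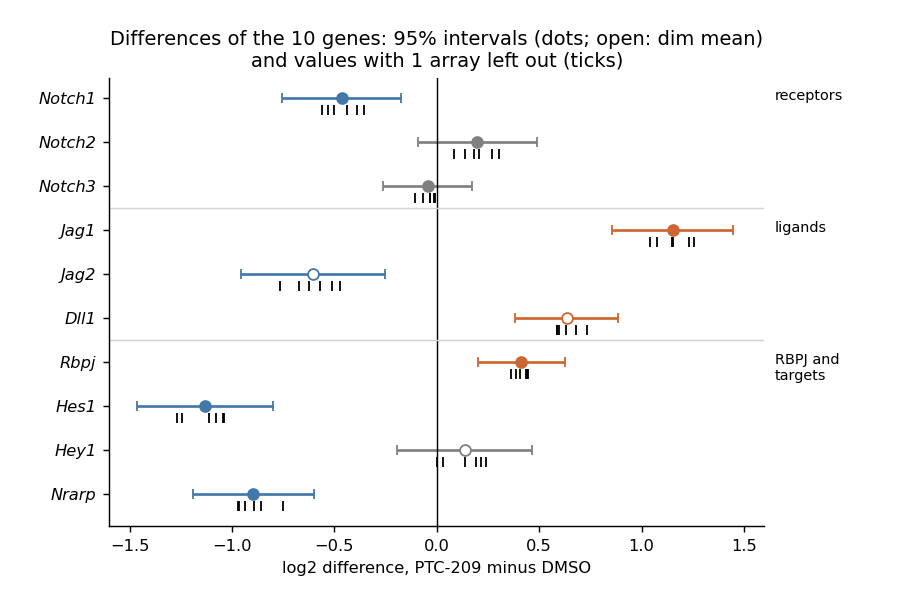
Log2 difference of each gene, PTC-209 minus DMSO, with its 95% confidence interval (dots and bars; orange rose, blue fell, grey did not pass), and the difference with each of the 6 arrays left out in turn (black ticks). Open dots mark Jag2, Dll1 and Hey1, which have a dim group mean. Jag1 at 1.15 and Hes1 at -1.13 mark the ends of the range.

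For 7 of the 10 genes the groups did not overlap, against 40.5% of all named genes. Jag1, Dll1, Hes1 and Nrarp passed under every alternative run. The median SD of the 10 genes was 0.14 in DMSO and 0.19 with PTC-209, compared with 0.12 and 0.12 over all named genes. Within the treated group, replicate 3 gave the lowest value for 6 of the 10 genes (Notch1, Notch2, Jag1, Jag2, Dll1 and Rbpj) and for 33.4% of all named genes. In the control group no array was lowest for more than 4 of the 10.

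**Figure D3:**
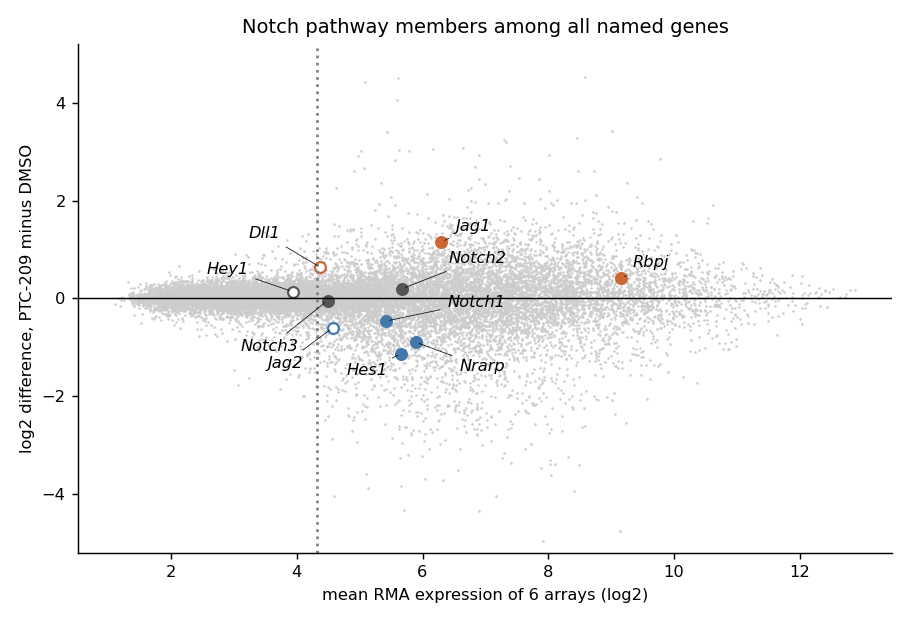
Log2 difference of every named gene (grey points) against its mean expression over the 6 arrays, with the 10 Notch genes marked (orange rose, blue fell, dark grey did not pass; open with a dim group mean); the dotted line is the median brightness of 4.33. Dll1, Jag2, Notch3 and Hey1 lie near that line, Rbpj is the only one of the 10 with a mean above 8, and 1.45% of genes have a difference as high as that of Jag1 or higher and 3.47% one as low as that of Hes1 or lower.

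The genes with profiles most like the greatest rise and the greatest fall of the 10 were found by Euclidean distance between log2 values centred on the DMSO mean, over the 6 arrays and 19927 other named genes. Nearest to Jag1 were Plcxd2 (distance 0.133), the ubiquitin ligase Cbl (0.136) and Ldlrad3 (0.197), of which Cbl and Ldlrad3 had log2 differences of 1.15 and 1.13 and Plcxd2 went from a dim 4.22 to 5.37. Nearest to Hes1 were Tex30 (0.159), the nuclear pore subunit Nup37 (0.231) and the arsenic methyltransferase As3mt (0.243), of which Tex30 and Nup37 had differences of -1.08 and -1.16 and As3mt went from 4.64 to a dim 3.46.

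Other genes of the pathway were read from 6 lists. Of their 85 genes 81 had a probe set, 65 of them at or above the median brightness in a group. Over all named genes 12.9% rose and 13.7% fell, the shares to set beside the counts of each list below. Of the 81 genes, 17 rose (21.0%), 15 fell (18.5%) and 49 did not pass, with a median log2 difference of 0.069. Tested against a minimum fold change of 1.2, 5 rose and 8 fell. Of 9 further receptors and ligands, 1 fell, the endothelial ligand Dll4. It went from 4.33 ± 0.11, a level at the median brightness, to a dim 3.86 ± 0.15 (limma adjusted p = 0.0133). Leaving out DMSO replicate 3 (0.0549) ended that call, as did leaving out PTC-209 replicate 2 (0.0601) and a minimum fold change of 1.2 (0.288). The level of Notch4, a receptor of endothelium, was 4.17 ± 0.06 in DMSO and 4.06 ± 0.11 with PTC-209, dim in both.

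Of 9 measured genes of receptor cleavage, 1 rose and 2 fell. Furin, which cuts the receptor on its way to the surface, was 1.32-fold higher (limma adjusted p = 0.0137). Adam10, the protease that cuts the receptor after ligand binding, was 1.29-fold lower (0.0141), and Ncstn, nicastrin of gamma-secretase, was 1.34-fold lower (0.031). All 3 calls depend on single arrays, and none of them passed against a minimum fold change of 1.2 (limma adjusted p of 0.483 to 0.618). Furin did not pass when DMSO replicate 2, DMSO replicate 3 or PTC-209 replicate 1 was left out (adjusted p of 0.0525 to 0.0537). The same held for Adam10 and PTC-209 replicate 2 (0.0642). Ncstn did not pass when 1 of 4 arrays was left out, DMSO replicates 1 and 2 and PTC-209 replicates 2 and 3 (0.0585 to 0.107). It was also lost with the presumed control probe sets kept (0.0643). Adam17, a related protease, differed by -0.07 and did not pass (adjusted p = 0.702).

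Of 20 genes of sugar modification, traffic and turnover of receptors and ligands, 5 rose and 4 fell. Dtx3l, a ubiquitin ligase of the Deltex family, was 1.96-fold lower (limma adjusted p = 0.000127), and Itch, a ligase that acts on Notch, was 1.46-fold lower (0.00207). Lfng, a Fringe glycosyltransferase that shifts receptors towards Delta-like ligands, fell by 0.46 on the log2 scale, and Pofut1, which adds O-fucose to receptors, by 0.40. The rises were those of Dtx3, from 3.66 to 4.20, and Mib2, a ligase for ligand uptake, by 0.47, and those of the Notch inhibitor Numb by 0.45, Dtx2 by 0.31 and Mfng, from 3.14 to 3.55. Mfng and Dtx3 were dim in both groups. Tested against a minimum fold change of 1.2, Itch (limma adjusted p = 0.0553), Dtx3 (0.082) and Mib2 (0.223) did not pass, while Dtx3l did (0.000815).

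Nuclear cofactors held 7 rises and 3 falls among 20. Kat2b, the acetyltransferase PCAF, read 6.24, 5.90 and 6.02 in DMSO and 4.70, 4.85 and 4.69 with PTC-209, a 2.47-fold lower level (limma adjusted p = 3.08e-05). Hdac1, a deacetylase found in RBPJ corepressor complexes, was 2.45-fold lower (6.32e-06), and its other probe set differed by -1.14. Kat2a, the acetyltransferase GCN5, fell by 0.58. Kdm5a, a histone demethylase, was 1.57-fold higher (0.00256), and the acetyltransferase Ep300, p300, was 1.56-fold higher (0.00493). Tested against a minimum fold change of 1.2, Ep300 did not pass (limma adjusted p = 0.0611), while Kdm5a did (0.0354). The other rises were those of Tle3, Cir1 and Crebbp, by 0.60, 0.58 and 0.57 on the log2 scale. The Mastermind-like coactivators Maml3 and Maml1 rose as well, by 0.47 and 0.39 (limma adjusted p of 0.01 and 0.0294).

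Among 10 further genes of the Hes and Hey family and their relatives, 2 rose and 0 fell by limma's adjusted p (4 and 0 at an unadjusted p under 0.05). Both rises were those of relatives outside the canonical Notch targets. Bhlhe40, also DEC1, a repressor tied to the circadian clock and hypoxia, read 7.87, 7.60 and 7.61 in DMSO and 9.14, 9.16 and 9.03 with PTC-209, 2.67-fold higher (limma adjusted p = 1.20e-05). Bhlhe41, DEC2, went from a dim 3.52 ± 0.35 to 6.43 ± 0.30 (5.68e-06). Hes5, a target in neural progenitors, had a log2 difference of 0.23, Hes6 of 0.31 and Hes7 of 0.32, with adjusted p of 0.204, 0.0718 and 0.0879. Hes2, Hes3, Hey2 and Helt were dim in both groups.

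Of 13 measured genes described as Notch targets in other tissues, 2 rose and 5 fell. The list mixes targets of many other signals. Id3, an inhibitor of helix-loop-helix factors that BMP signals also induce, read 7.76, 7.33 and 7.32 in DMSO and 4.31, 4.62 and 4.76 with PTC-209, a 7.51-fold lower level (limma adjusted p = 1.49e-06). Bcl2 was 2.24-fold lower, cyclin D1, Ccnd1, 2.02-fold and the receptor Ephb4 1.53-fold lower, and Tnc, tenascin C, went from 4.62 to a dim 3.59. The rises were those of Myc, 1.62-fold, and Snai2, a repressor tied to epithelial to mesenchymal transition, 1.66-fold.

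**Figure D4:**
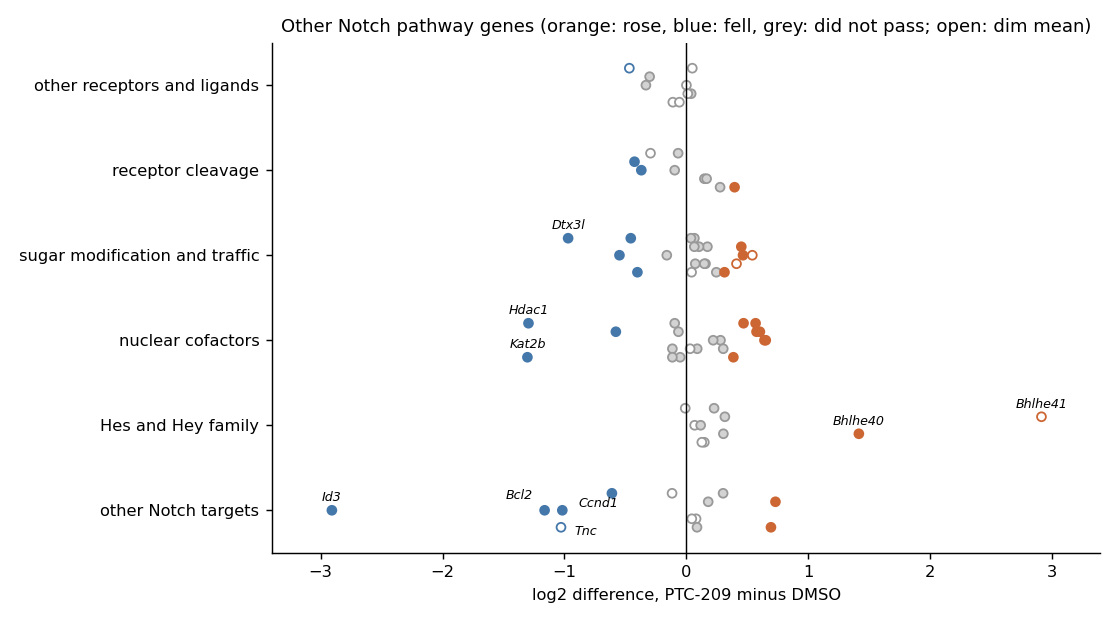
Log2 difference, PTC-209 minus DMSO, of the 81 measured genes of 6 pathway lists, 1 point per gene (orange rose, blue fell, grey did not pass; open with a dim group mean; the vertical offset within a row only separates the points). Genes with a difference beyond 0.9 are named, among them Id3 at -2.91 and Hdac1 at -1.29, and Bhlhe41 and Tnc are open.

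Marker lists were read for the cell identities that Notch separates in the lung and for other cell types. Of 12 neuroendocrine and proneural genes, 0 passed the limma test (0 at an unadjusted p under 0.05), 9 were dim in both groups, and the mean of the list lay between 3.41 and 3.49 on the DMSO arrays and between 3.49 and 3.57 on the PTC-209 arrays. Club cell genes were dim in 7 of 7 and ciliated cell genes in 6 of 9, with 0 of either list passing (1 each at an unadjusted p under 0.05). Of 10 alveolar type II genes, 7 were dim in both groups, among them Sftpc and Nkx2-1, and 1, Etv5, rose 1.70-fold.

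The epithelial label was borne by 9 of 10 epithelial markers at or above the median brightness, with Krt8, Krt18, Krt7, Krt19, Cdh1 and Epcam among them. Krt7 was 2.85-fold, Krt18 2.06-fold, Krt19 1.99-fold and Krt8 1.77-fold lower with PTC-209, while Esrp1, Cldn4 and Cdh1 rose, by 0.76, 0.66 and 0.35 on the log2 scale. Endothelial markers were dim in 9 of 10, with the list mean at 3.95 to 4.05 in DMSO and 3.90 to 4.02 with PTC-209. The exception was Cdh5, which was 2.52-fold lower, from 9.48 to 8.15. Fibroblast and smooth muscle markers were dim in 6 of 10 and 0 passed (1 at an unadjusted p under 0.05), with list means of 3.79 to 3.87 and 3.81 to 3.97. Of 9 leukocyte markers 6 were dim, Ptprc among them. Cd68, also a lysosomal protein, rose 6.11-fold and Cd14 was 1.84-fold lower, with list means of 4.14 to 4.23 in DMSO and 4.35 to 4.43 with PTC-209. What part these shifts have in the differences of the Notch genes was not tested.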

How the data were processed

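Expression was read on 6 Affymetrix arrays from the authors' deposited table of log2 values for 34760 probe sets, which come from RMA per the submitters' processing notes. RMA corrects background, makes the arrays' distributions equal and summarises the probes of a set. The scale was inferred from the values; array medians lay between 4.07 and 4.14. RMA hides a shift shared by most genes. The samples' free-text description, which concerns embryos, was not used. The first 6568 probe sets, which have almost consecutive identifiers and no gene in the annotation, were presumed to be the array's controls and left out, leaving 28192. The sources used here do not mark control probe sets, and the calls of Notch1 and Jag2 depend on this choice. Of these, 21640 have 1 gene symbol in the platform annotation, 1321 several and 5231 none listed.

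Differences were tested with limma 3.58.1 in R 4.3.3 (treatment as the only term, constant prior), in a fit across all probe sets, tested on simulated data. Figures used matplotlib 3.10.9. The alternatives were other priors, filters, normalizations and weights, a replicate block, averaging a gene's probe sets, requiring a fold change above 1.2, keeping the presumed controls and leaving out each array.

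The members and lists were chosen with earlier results of these data known. The text names all 10 members, up to 4 passing genes of each other list by size of difference (or all where 5 or fewer passed in a direction), and the 3 genes nearest in profile to the greatest rise and fall; other genes named were chosen after their values were seen. The precision is limited by 3 arrays per group.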

Additional observations from a re-analysis of the deposited data

How the results depend on the processing

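With all 6 arrays kept, the 10 Notch genes held 3 rises under every alternative except a minimum fold change of 1.2, with 2. They held 4 falls except under that minimum, with 2, and with the presumed control probe sets kept, with 2. Keeping those probe sets lost Notch1 and Jag2, and the cause was not tested. With 1 array left out the 10 genes held 3 rises and 2 to 4 falls, with 2 falls without DMSO replicate 1 or PTC-209 replicate 3. Jag1, Dll1, Hes1 and Nrarp passed in every setting run. Hey1, which never passed, ranged from -0.000086 (without PTC-209 replicate 2) to 0.24 with 1 array left out. For the 6 pathway lists the minimum fold change left 5 rises of 17 and 8 falls of 15, and with 1 array left out 14 to 20 rose and 11 to 16 fell. Over all named genes that minimum left 1270 rises of 2565 and 1610 falls of 2741. Of 32 other genes named by rule, all of which passed, 24 passed in every setting run. The same replicate numbers, 1 to 3, gave correlations of deviations from the group means of 0.23, 0.07 and 0.07 across probe sets. Unlike numbers gave -0.16 to -0.11 where replicate 1 was involved, and 0.07 and 0.10 between replicates 2 and 3. The replicate 1 arrays thus went together, while numbers 2 and 3 did not tell the arrays apart. The numbers were not taken to pair the arrays in the main fit. With the replicate block 3 Notch genes rose and 4 fell, and 16 pathway genes rose and 16 fell. Dim levels, as for Hey1, limit what could be seen.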
